A study of Mus musculus with 6 samples.

Results

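The 38 genes described here mark T cells, natural killer (NK) cells, conventional dendritic cells and Langerhans cells. They were listed by name for what their products are known to do, with no measured value in the rule but with earlier results of these data known, and are 38 of the 24061 genes in the count table. All 38 had enough counts to stand among the 16371 genes tested. RNA-Seq of back skin was used to measure them in female C57BL/6 mice aged 8 to 14 weeks, which carried no other allele or agent that the sources name. The saline group was given 50 μl of saline and the rIL-31 group 20 μg of recombinant IL-31 (rIL-31) in the same volume of saline, by injection into the dermis of the shaved back each day for 14 days. Each group had 3 libraries, and the comparison asked which transcripts differed between rIL-31-treated and saline-treated skin.

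T cells recognize peptides through a receptor whose signal is carried by the CD3 chains, with CD4 or CD8 as the coreceptor, and the kinases Lck and Zap70 and the adaptor Lat pass the signal on. NK cells and cytotoxic T cells kill their targets with perforin and granzymes. Conventional dendritic cells and Langerhans cells, the dendritic cells of the epidermis, take up antigen, mature and show it to T cells together with the costimulatory ligands CD80 and CD86. Mouse skin holds regulatory and memory T cells in the dermis and around hair follicles and a gamma delta T cell population in the epidermis. IL-31 is itself a cytokine made mainly by activated T helper 2 cells.

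Of the 38 genes, 2 rose, 1 fell and 35 did not pass the test. Gzmb, which encodes the cytotoxic protease granzyme B, and Cd83, a surface protein of mature dendritic cells, were higher in rIL-31-treated skin, and Cd4, the coreceptor of helper and regulatory T cells, was lower. Among all tested genes 4.51% rose and 3.73% fell, so the members passed about as often as genes in general. The words rose and fell are kept for genes with a false discovery rate (FDR) below 0.1 in edgeR's quasi-likelihood test, with Benjamini-Hochberg adjustment over all tested genes. With a change of more than 2-fold also asked for, Gzmb was the 1 member higher and Cd4 the 1 member lower, against 1.15% and 0.696% of all tested genes. The 3 libraries of one group lay wholly above those of the other for 3 members that were higher after rIL-31 (Gzmb, Cd83 and Nkg7) and for 5 that were lower (Cd4, Cd247, Cd8a, Icos and Il7r). Among all tested genes these shares were 12.8% and 12.9%. The median log2 fold change of the members was -0.043, beside 0.0077 over all tested genes. At an unadjusted p below 0.05, 4 members were higher (Gzmb, Cd83, Il2rg and Nkg7) and 2 were lower (Cd4 and Il7r). Of all 16371 tested genes, 1683 were higher and 1517 lower at that p. DESeq2 called Gzmb, Cd83 and Cd4 in the same directions and added Il7r as lower. Over all tested genes DESeq2 called 1029 higher and 924 lower.

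**Figure D1:**
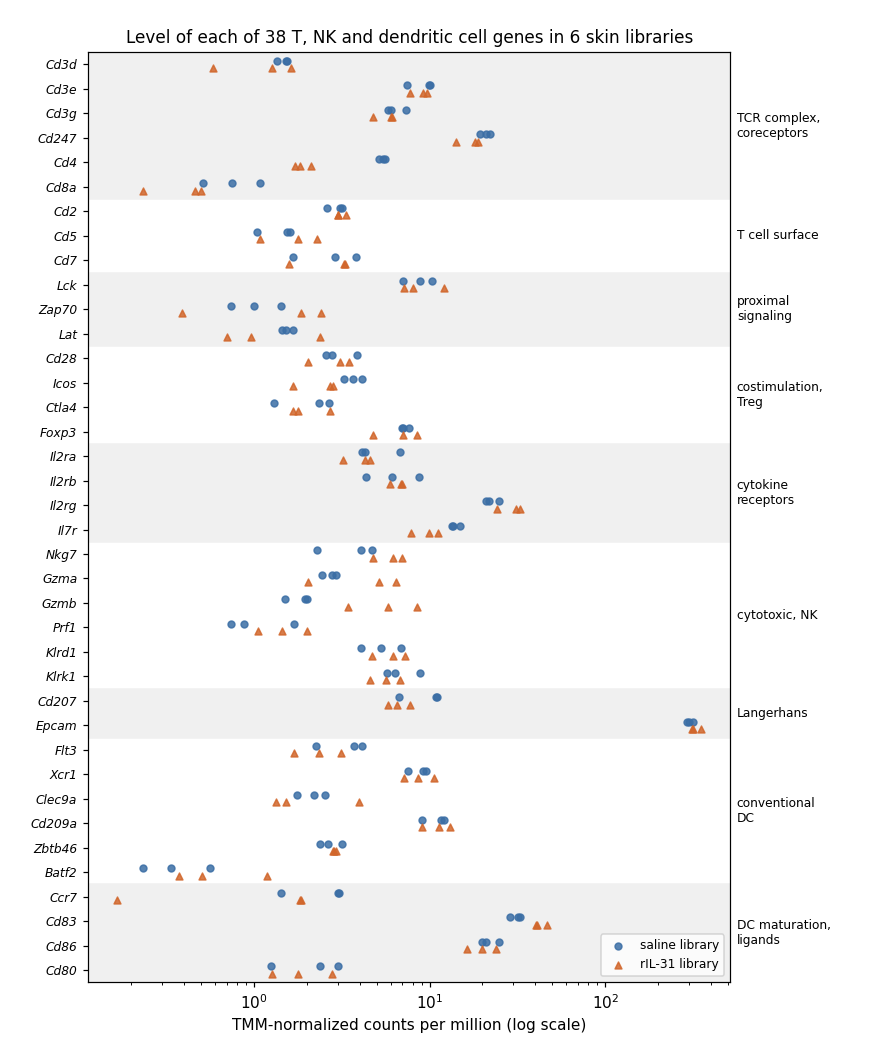
Level of each of the 38 genes in TMM-normalized CPM on a log scale, with 1 point per library (blue circles, 3 saline; orange triangles, 3 rIL-31) and the genes grouped by role. Cd4 has all rIL-31 points to the left of the saline points, Gzmb and Cd83 have them to the right, and most other genes have the points of the groups mixed.

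Total counts were between 21710679 and 25552684 per library, and levels are given in CPM, the usual count scaled to depth, with depth adjusted by TMM (trimmed mean of M values). Whether the numbered libraries of a group came from different mice is not stated, and the p-values therefore reflect only how far these libraries differ, which may be technical. In whole skin, fewer cells of a type and less RNA per cell cannot be told apart. Keratin genes showed the tissue to be skin, with a keratinocyte marker sum of 8165 CPM or more in every library, while the sum of 10 pan-leukocyte genes ran from 458 to 497 CPM in saline and from 497 to 552 CPM in rIL-31 libraries. Of the pan-leukocyte genes 1 of 10 rose. Several other marker lists differed between the groups. Of the mast cell markers 5 of 8 rose (sum 234 to 246 CPM against 307 to 361 CPM), and of the tested keratinocyte markers 5 of 7 (8165 to 8963 CPM against 12580 to 17029 CPM). The sum of the neutrophil markers went from 95.9 to 127 CPM in saline to 133 to 170 CPM in rIL-31 libraries, with 2 of 6 tested genes higher. The eosinophil sum was 3.47 to 6.13 CPM against 7.19 to 13.2 CPM, with 2 of 4 higher and Epx at 0 in all libraries. None of the 10 macrophage, 4 B cell and 6 plasmacytoid dendritic cell markers tested with edgeR passed, and 1 of them, a macrophage marker, was higher at an unadjusted p below 0.05. The part of these cells in the results below was not tested unless a value is given.

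Cd4 showed the clearest difference between the groups. It lies on chromosome 6 from 124864693 to 124888247 (GRCm38.p6). Its level was 5.42, 5.55 and 5.13 CPM in the saline libraries and 2.12, 1.71 and 1.83 CPM in the rIL-31 libraries. Every rIL-31 library was below every saline library, and the spread within each group was small, with means of 5.36 ± 0.216 (SD, n = 3) and 1.89 ± 0.208 (SD, n = 3) CPM. The level was 2.84-fold lower after rIL-31, a log2 fold change of -1.51 (standard error 0.27, 95% interval -2.10 to -0.91) with an FDR of 0.009995 in edgeR's quasi-likelihood test. Cd4 passed under all 16 other settings and omissions of a library, with log2 fold changes between -1.60 and -1.46.

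The chains of the receptor complex that Cd4 works with did not pass the test. Cd3e, a CD3 chain of every T cell, was at 10.1, 9.97 and 7.46 CPM in saline and 9.69, 7.73 and 9.14 CPM in rIL-31 libraries. These libraries overlapped, and the log2 fold change of Cd3e was -0.052 with a 95% interval from -0.48 to 0.38. Within each library the ratio of Cd4 to Cd3e counts was 0.538, 0.557 and 0.688 in saline libraries, against 0.218, 0.222 and 0.200 after rIL-31, a ratio chosen after its values were seen. Cd3g, another CD3 chain, had a log2 fold change of -0.18 (FDR 0.713), and Cd3d, the last of the CD3 chains, at 0.583 to 1.63 CPM, one of -0.35 (FDR 0.768). Cd247, the signaling zeta chain that NK cells also use, was at 22.1, 19.3 and 20.9 CPM in saline and 19.0, 18.3 and 14.2 CPM in rIL-31 libraries. All of its rIL-31 libraries were lower, but by less than the test required, with a log2 fold change of -0.28 and an FDR of 0.352.

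Cd8a, the coreceptor of cytotoxic T cells, was the least abundant of the receptor genes at 0.756, 1.08 and 0.513 CPM in saline and 0.465, 0.501 and 0.233 CPM in rIL-31 libraries. Its groups did not overlap either, but its 95% interval ran from -2.39 to 0.45 at 13.8 counts per library on average, which includes both 0 and the change of Cd4. The ratio of Cd4 to Cd8a counts ranged from 5.12 to 10 in saline and from 3.42 to 7.83 in rIL-31 libraries, which overlapped. All 6 receptor and coreceptor genes had a negative log2 fold change. Their summed level was 41.4 to 45.7 CPM in saline and 32.0 to 38.6 CPM in rIL-31 libraries, or 8.996% to 9.696% and 5.79% to 7.76% of the pan-leukocyte sum. Cd4 itself (means 5.36 and 1.89 CPM) and Cd247 (means 20.8 and 17.1 CPM) held most of that difference. Cd4 is also made by some mouse dendritic cells and macrophages. The macrophage marker sum was 1001 to 1102 CPM in saline and 962 to 1143 CPM in rIL-31 libraries. None of the 6 conventional dendritic cell members passed. Of 23 further genes of those cells, 5 rose and 1, Itgax, fell (log2 fold change -0.74, FDR 0.0193). Which cells carried the difference in Cd4 was not tested.

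**Figure D2:**
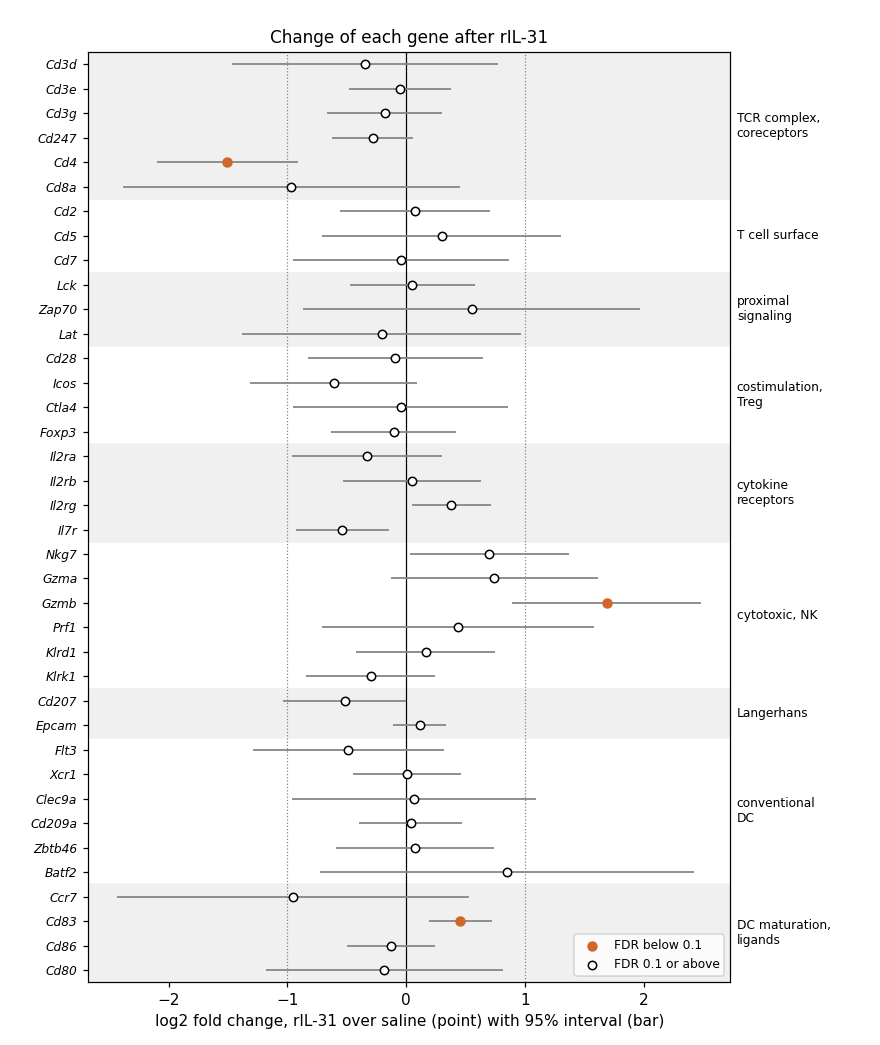
Log2 fold change of each of the 38 genes, rIL-31 over saline (points; filled where the FDR was below 0.1), with its 95% interval (bars), and dotted lines at 2-fold either way. Cd4 at -1.51, Gzmb at 1.69 and Cd83 at 0.46 are the filled points, and the intervals of 15 genes that did not pass reach a dotted line.

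None of the genes for the other T cell receptors and for proximal signaling passed. Cd2, an adhesion receptor of T and NK cells, was at 3.11, 3.17 and 2.61 CPM in saline and 3.004, 3.007 and 3.34 CPM in rIL-31 libraries, and its log2 fold change of 0.074 had an interval from -0.56 to 0.71. Cd5, which restrains T cell receptor signals, had a log2 fold change of 0.30 (FDR 0.779), and Cd7, a surface protein of T and NK cells, one of -0.042 (FDR 0.971). The libraries of these 3 genes overlapped between the groups. Lck, the kinase bound to CD4 and CD8, was at 10.3, 8.80 and 7.04 CPM in saline and 12.02, 8.02 and 7.11 CPM in rIL-31 libraries. The log2 fold change was 0.053 with an interval from -0.48 to 0.58. Zap70, the kinase that binds the phosphorylated chains, spread 6.23-fold within the rIL-31 group, from 1.86 and 2.42 CPM in replicates 1 and 2 to 0.389 CPM in replicate 3. Lat, the adaptor that Zap70 phosphorylates, was at 2.37, 0.961 and 0.700 CPM there and between 1.45 and 1.68 CPM in saline. The intervals, -0.87 to 1.97 for Zap70 and -1.38 to 0.96 for Lat, included 0 and reached past 2-fold, upwards for Zap70 and downwards for Lat.

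The regulatory T cell genes also did not pass. Foxp3, the transcription factor that defines regulatory T cells, was at 7.69, 7.07 and 6.94 CPM in saline and 8.46, 7.02 and 4.74 CPM in rIL-31 libraries. Replicate 1 of the rIL-31 group held the highest level of all and replicate 3 the lowest, and the log2 fold change was -0.10 (interval -0.63 to 0.42). The ratio of Foxp3 to Cd3e counts was 0.709 to 0.931 in saline and 0.519 to 0.908 in rIL-31 libraries. Ctla4, an inhibitory receptor that regulatory T cells hold at a high level, was at 2.35, 2.69 and 1.31 CPM in saline and 1.78, 2.72 and 1.67 CPM in rIL-31 libraries, with a log2 fold change of -0.045. Its ratio to Cd3e counts was 0.175 to 0.270 in saline and 0.183 to 0.351 in rIL-31 libraries, so neither ratio separated the groups. Cd28, the costimulatory receptor that competes with Ctla4 for its ligands, had a log2 fold change of -0.092 (FDR 0.915). Icos, a costimulatory receptor of activated T cells, was at 3.28, 3.69 and 4.10 CPM in saline and 2.83, 1.67 and 2.72 CPM in rIL-31 libraries. All rIL-31 libraries of Icos were lower, with a log2 fold change of -0.61 (standard error 0.32) that did not pass (FDR 0.325).

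**Figure D3:**
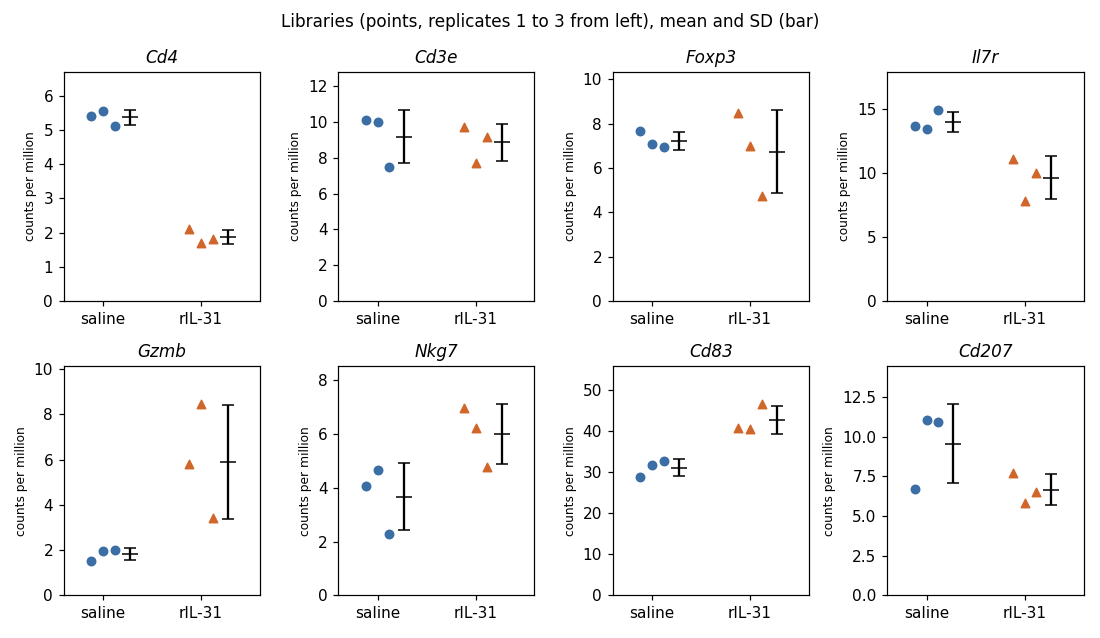
Levels of 8 of the genes in TMM-normalized CPM on linear axes from 0, with 1 point per library (replicates 1 to 3 from the left; blue circles saline, orange triangles rIL-31) and the mean with its SD (n = 3) as a bar. Cd4 fell from a mean of 5.36 to 1.89 CPM while Cd3e and Foxp3 overlapped between the groups, and Gzmb and Cd83 were higher in every rIL-31 library.

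The 4 receptor genes of the common gamma chain cytokines did not move one way. Il7r, the receptor by which resting T cells and innate lymphoid cells sense IL-7, was at 13.6, 13.4 and 14.9 CPM in saline and 11.1, 7.81 and 9.99 CPM in rIL-31 libraries. The groups did not overlap, but the log2 fold change of -0.54 (standard error 0.18) had an FDR of 0.120. Il7r passed as lower with DESeq2 (FDR 0.0744), with edgeR's exact test (FDR 0.0667) and without rIL-31 replicate 3 (FDR 0.0684). Il2rg, the gamma chain itself, which many leukocytes carry, was at 20.9, 24.8 and 21.7 CPM in saline and 24.2, 30.99 and 32.6 CPM in rIL-31 libraries. Replicate 1 of the rIL-31 group lay within the saline range, and the log2 fold change of 0.38 (standard error 0.15) did not pass (FDR 0.185). Il2ra, the alpha chain that makes the IL-2 receptor of regulatory and activated T cells a high-affinity one, had a log2 fold change of -0.33 (interval -0.96 to 0.30). Il2rb, the beta chain shared by the receptors of IL-2 and IL-15, was at 4.33 to 8.67 CPM in saline and 5.97 to 6.94 CPM in rIL-31 libraries, with a log2 fold change of 0.051.

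Gzmb had the largest rise among the members. It lies on the minus strand of chromosome 14 from 56258836 to 56262334 (GRCm38.p6), next to other granzyme genes of similar sequence, and since the sources used here do not say how reads with several matches were counted, its counts may include or lack such reads. Its promoter is shown because Gzmb is the 1 member past both the test and 2-fold that has an entry in the RefSeq promoter table (GRCm38.p6). The 250 bases before the start, chr14:56262335-56262584 on the minus strand, hold 1 match to the AP-1 motif TGANTCA, in capitals, at positions -58 to -52 from the start.
Gzmb promoter: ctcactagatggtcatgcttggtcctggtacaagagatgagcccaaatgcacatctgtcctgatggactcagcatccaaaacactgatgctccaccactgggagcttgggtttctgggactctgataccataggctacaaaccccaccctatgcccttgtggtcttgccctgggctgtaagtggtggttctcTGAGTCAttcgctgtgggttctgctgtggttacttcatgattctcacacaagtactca

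Gzmb was at 1.51, 1.95 and 2.004 CPM in the saline libraries and at 5.796, 8.44 and 3.42 CPM in the rIL-31 libraries. Every rIL-31 library was above every saline library, but they differed among themselves, with replicate 3 the lowest, and the means were 1.82 ± 0.270 (SD, n = 3) and 5.88 ± 2.51 (SD, n = 3) CPM. The level was 3.22-fold higher after rIL-31, a log2 fold change of 1.69 (standard error 0.36, interval 0.89 to 2.49) with an FDR of 0.0243. Without saline replicate 2 the change was 1.74 with an FDR of 0.106, which no longer passed, and without rIL-31 replicate 2, the library with the highest level, it was 1.32 with an FDR of 0.0842. Mouse mast cells can also make granzyme B, and 5 of 8 mast cell markers rose, with the sums given above. The part of mast cells in the rise of Gzmb was not tested.

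The other cytotoxic genes did not pass. Nkg7, a granule membrane protein of NK and cytotoxic T cells, was at 4.07, 4.68 and 2.28 CPM in saline and 6.98, 6.22 and 4.78 CPM in rIL-31 libraries. All of its rIL-31 libraries were higher, the lowest only just, and the log2 fold change of 0.70 (standard error 0.30) had an FDR of 0.232, and of 0.0905 without rIL-31 replicate 3. Gzma, which encodes granzyme A, was at 2.44, 2.95 and 2.80 CPM in saline and 6.47, 2.05 and 5.17 CPM in rIL-31 libraries. Replicate 2 of the rIL-31 group, which had the highest Gzmb, had the lowest Gzma of all 6 libraries. The log2 fold change of Gzma was 0.74 (standard error 0.39, FDR 0.333), and without that library it passed with an FDR of 0.0704. Prf1, the pore-forming perforin, had a log2 fold change of 0.44 with an interval from -0.71 to 1.58 at 31 counts per library on average. Klrd1, the CD94 chain of NK receptors, was at 4.08 to 6.85 CPM in saline and 4.70 to 7.23 CPM in rIL-31 libraries, with a log2 fold change of 0.16. Klrk1, the activating receptor NKG2D of NK cells and epidermal gamma delta T cells, had one of -0.30 (FDR 0.563). Both overlapped between the groups, while the summed level of the 6 cytotoxic genes was 19.9 to 23.5 CPM in saline and 25.2 to 34.3 CPM in rIL-31 libraries. Gzmb, Gzma and Nkg7 held most of that difference. Of 8 gamma delta T cell markers listed, 4 were found by name in the count table and 3 tested. Sox13 rose (log2 fold change 0.75, FDR 0.0893) and Cd163l1 did not pass (0.93, FDR 0.374). Blk, listed here as a B cell marker too, was at -0.86 (FDR 0.553). The list summed to 6.85 to 9.49 CPM in saline and 10.7 to 16.8 CPM in rIL-31 libraries. Sox13 alone had means of 7.02 and 11.8 CPM, and Il17a had 0 counts in all libraries. Which cells carried the rise of Sox13 was not tested.

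The Langerhans cell genes did not pass. Cd207, which encodes langerin, the lectin of Langerhans cells that dermal Xcr1-bearing dendritic cells share, was at 6.72, 11.06 and 10.95 CPM in saline and 7.70, 5.81 and 6.53 CPM in rIL-31 libraries. Saline replicates 2 and 3 stood above all other libraries, and saline replicate 1 lay within the rIL-31 range. The log2 fold change was -0.52 (standard error 0.24, interval -1.04 to 0.001) with an FDR of 0.257. Epcam, an adhesion molecule of Langerhans cells that hair follicle epithelium also makes, was by far the most abundant member per transcript length, at 148 RPKM in saline (CPM per kilobase of the longest transcript) against 6.29 RPKM for Cd207. Its level was 291, 316 and 298 CPM in saline and 351, 313 and 315 CPM in rIL-31 libraries, a log2 fold change of 0.11 with an interval from -0.11 to 0.33. The ratio of Cd207 to Epcam counts was 0.0231 to 0.0367 in saline and 0.0186 to 0.0219 in rIL-31 libraries and did not overlap. The hair follicle and sebaceous marker sum was 12323 to 13468 CPM in saline and 12431 to 14943 CPM in rIL-31 libraries, and the share of Epcam that came from epithelium was not tested.

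None of the 6 conventional dendritic cell genes passed, and the groups overlapped for each. Xcr1, the chemokine receptor of cross-presenting dendritic cells, was at 9.58, 7.54 and 9.18 CPM in saline and 10.7, 8.56 and 7.19 CPM in rIL-31 libraries, and its log2 fold change of 0.006 had an interval from -0.45 to 0.46. Clec9a, the dead-cell receptor of the same subset, was at 1.76 to 2.56 CPM in saline and at 3.98, 1.34 and 1.52 CPM in rIL-31 libraries, where replicate 1 stood above all others. Cd209a, a lectin of dermal dendritic cells of the other subset and of cells derived from monocytes, was at 9.03, 11.6 and 12.02 CPM in saline and 11.3, 9.02 and 13.1 CPM in rIL-31 libraries. The log2 fold change was 0.037 with an interval from -0.40 to 0.47. Zbtb46, a transcription factor of conventional dendritic cells, was at 2.39 to 3.17 CPM in saline and 2.83 to 2.92 CPM in rIL-31 libraries. Flt3, the receptor for the growth factor that dendritic cells depend on, had a log2 fold change of -0.49 (interval -1.29 to 0.32). Batf2, a transcription factor induced in macrophages and dendritic cells, was the member with the fewest counts, 12.7 per library on average, and its interval from -0.72 to 2.43 left its direction unresolved.

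Of the maturation genes, Cd83 rose. It lies on chromosome 13 from 43785112 to 43803133 (GRCm38.p6) and was at 28.9, 31.8 and 32.7 CPM in saline and 40.9, 40.6 and 46.5 CPM in rIL-31 libraries. The groups did not overlap, and the means were 31.1 ± 2.01 (SD, n = 3) and 42.7 ± 3.36 (SD, n = 3) CPM. The level was 1.37-fold higher, a log2 fold change of 0.46 (standard error 0.12, interval 0.19 to 0.72) with an FDR of 0.0585. The call of Cd83 was lost with offsets for GC content and transcript length (0.38, FDR 0.107). It was also lost without any 1 of the saline replicates 1 to 3 (FDR 0.220, 0.240 and 0.175) or without rIL-31 replicate 1 (FDR 0.112) or 2 (FDR 0.112), while the log2 fold change stayed between 0.39 and 0.49 over all 6 omissions. Cd83 is also known from activated B cells, and the B cell markers ranged from Ms4a1 and Pax5, with at most 8 counts in any library, to Cd22 with 29 to 58 and Fcer2a with 43 to 83. None of the 4 that could be tested passed, and the part of B cells in the rise of Cd83 was not tested.

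The ligands that Cd83 accompanies on mature dendritic cells did not pass. Cd86, the ligand of Cd28 and Ctla4 that many myeloid cells carry, was at 19.8, 24.9 and 20.8 CPM in saline and 16.4, 19.8 and 23.8 CPM in rIL-31 libraries, a log2 fold change of -0.13 with an interval from -0.50 to 0.24. The ratio of Cd83 to Cd86 counts, chosen after its values were seen, was 1.46, 1.28 and 1.57 in saline libraries, against 2.50, 2.05 and 1.96 after rIL-31, and so did not overlap. Cd80, the other ligand of these receptors, had a log2 fold change of -0.18 (interval -1.18 to 0.82), and the ratio of Cd86 to Cd80 counts was 6.88 to 19.8 in saline and 8.50 to 12.9 in rIL-31 libraries. Ccr7, the receptor that guides mature dendritic cells and naive T cells to lymph nodes, was at 1.43, 3.035 and 3.03 CPM in saline and 1.86, 0.167 and 1.83 CPM in rIL-31 libraries. Replicate 2 of the rIL-31 group was 11.1-fold below replicate 1, and the interval of Ccr7 ran from -2.43 to 0.53.

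Of the 35 members that did not pass, 20 had a 95% interval inside 2-fold either way and 15 had one that reached it. All 10 members with fewer than 50 counts per library on average were among the 35. Within the saline group no member spread more than 3-fold between the libraries, and within the rIL-31 group 5 did (Ccr7, Zap70, Lat, Gzma and Batf2). Among the libraries, rIL-31 replicate 3 held the lowest of the 6 levels for 9 members. The shares of all tested genes with such a spread or such a lowest level were not counted. Over all genes, GC-rich transcripts were relatively high in rIL-31 replicates 1 and 2 (Spearman rank correlation of GC content with relative level 0.383 and 0.272) and relatively low in rIL-31 replicate 3 (-0.250) and in the saline libraries (-0.115, -0.203 and -0.238). Across the 38 members, which share these libraries, the level in rIL-31 replicate 3 relative to replicates 1 and 2 had a Spearman correlation of -0.370 with GC content. Zap70, at 59.6% GC the most GC-rich member, was the lowest in that library relative to the others. Offsets for GC content and length left Cd4 at -1.58 (FDR 0.00676) and Gzmb at 1.71 (FDR 0.0296), while Cd83 no longer passed with them, as given above.

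**Figure D4:**
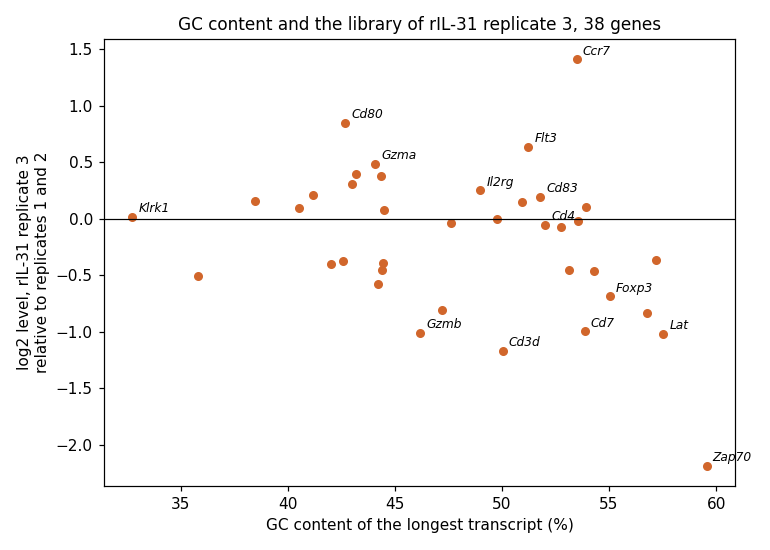
Log2 level of each of the 38 genes in rIL-31 replicate 3 relative to the mean of rIL-31 replicates 1 and 2, against the GC content of its longest transcript in percent, with 1 point per gene and some genes named. The points tend downwards with GC content (Spearman correlation -0.370), from Klrk1 at the left, near 0, to Zap70 at the right, the lowest point, and Ccr7 is the highest point.

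Further genes of the same cells were read from 5 lists, beside the 4.51% of all tested genes that rose and the 3.73% that fell. Of 31 further T cell genes tested, 3 rose (9.68%) and none fell, with a median log2 fold change of 0.10. At an unadjusted p below 0.05, 2 were lower, the same number as with DESeq2 at an FDR below 0.1. Lower at that p, and named after their values were seen, were Havcr2 (log2 fold change -0.62, FDR 0.126) and Cd6 (-2.53, FDR 0.153). Cd6 had 12, 26 and 33 counts in saline libraries and 9, 0 and 4 after rIL-31. Those that rose were Ccr4, the receptor of skin-homing and T helper 2 cells (6.68, 7.33 and 6.43 CPM in saline, 13.0, 14.5 and 10.6 CPM in rIL-31 libraries, log2 fold change 0.90, FDR 0.0207), Bcl11b, a T cell factor that keratinocytes also make (0.43, FDR 0.0515), and Lcp2, the adaptor SLP-76 (0.63, FDR 0.0521). Ccr4 was thus higher in every rIL-31 library while Cd4 was lower in every one, and which cells carried the rises of Ccr4, Bcl11b and Lcp2 was not tested. This count of 3 ranged from 0 without saline replicate 3 to 6 without rIL-31 replicate 3. Of the T cell cytokines in the list, Il10 was tested and did not pass (51, 39 and 27 counts in saline libraries and 127, 38 and 52 after rIL-31, log2 fold change 0.81, FDR 0.406), and the other 8 had too few counts to test. Il4 had 11, 6 and 7 counts in saline libraries and 19, 9 and 10 after rIL-31, Ifng had 0, 0 and 0 against 11, 12 and 0, and Il31, Il17a and Il22 had 0 counts in all 6. The constant-region genes of the T cell receptor were not analysed here, and those listed as gamma delta T cell markers were not found by name in the count table.

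Of 21 further cytotoxic and NK cell genes tested, none passed with edgeR's quasi-likelihood test, and 1 was higher and 1 lower at an unadjusted p below 0.05, the same numbers as with DESeq2 at an FDR below 0.1. Ccl5, a chemokine of activated T and NK cells, was at 1.51, 3.77 and 2.52 CPM in saline and 6.43, 4.93 and 5.09 CPM in rIL-31 libraries (log2 fold change 1.08, FDR 0.107). Gzmc, which encodes granzyme C and lies beside Gzmb, was at 1.22, 1.43 and 1.86 CPM in saline and 0.592, 0.543 and 0.0777 CPM in rIL-31 libraries (log2 fold change -1.89, FDR 0.150). The groups of both genes did not overlap, and Gzmc lay on the opposite side from Gzmb. Cd244, an NK cell receptor, followed at -0.31 (FDR 0.549). The median log2 fold change of the 21 genes was -0.019. Their list summed to 80.9 to 93.8 CPM in saline and 85.7 to 91.6 CPM in rIL-31 libraries, which overlapped.

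Of 23 further conventional dendritic cell genes, 5 rose (21.7%, beside 4.51% of all tested genes) and 1 fell (4.35%, beside 3.73%), with a median log2 fold change of -0.016. At an unadjusted p below 0.05 in the same test, 5 were higher and 5 lower. The gene that fell was Itgax, the integrin CD11c of dendritic cells and some macrophages, at 20.8, 17.8 and 17.6 CPM in saline and 10.5, 11.8 and 11.4 CPM in rIL-31 libraries (log2 fold change -0.74, FDR 0.0193). The others lower at that p, named after their values were seen, were Wdfy4 (-0.40, FDR 0.142), Itgae (-0.64, FDR 0.171), Haao (-2.24, FDR 0.192) and Ly75 (-0.84, FDR 0.206). Those that rose were Ifi205, an interferon-inducible gene (0.59, FDR 0.0255), Csf2rb, the shared beta chain of the receptors of GM-CSF, IL-3 and IL-5 that mast cells and eosinophils also carry (0.50, FDR 0.0356), and Naaa, Cd24a and Itgb7, named after their values were seen. None of these 5 defines dendritic cells alone, and which cells carried their rises was not tested. The count of 5 ranged from 0 without saline replicate 2 to 7 without rIL-31 replicate 3, and that of 1 from 1 to 4 without that same library.

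Of 22 further maturation genes, Socs2, a feedback inhibitor of cytokine signals, rose (log2 fold change 0.42, FDR 0.0647) and none fell. Beside this, 3 were higher and 2 lower at an unadjusted p below 0.05, and DESeq2 gave 1 higher and 2 lower. The rise of Socs2 was lost without any 1 library other than rIL-31 replicate 3. Ccl22, the dendritic cell chemokine that draws cells bearing Ccr4, was at 11.2, 11.3 and 6.43 CPM in saline and 5.37, 6.39 and 4.39 CPM in rIL-31 libraries. Its groups just failed to touch, and its log2 fold change of -0.84 (standard error 0.26) lay at the threshold without passing it (FDR 0.10005). Slco5a1, a transporter gene, was at -0.44 (FDR 0.108).

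Of 13 further Langerhans cell genes none passed, while 2 were higher and 2 lower at an unadjusted p below 0.05, and DESeq2 gave 0 higher and 2 lower at an FDR below 0.1. Itgb8, the integrin chain by which epidermal cells activate TGF-beta, was at -0.76 (FDR 0.144), Cd74, the invariant chain of antigen-presenting cells, at -0.29 (FDR 0.158), and Tgfbr2, a TGF-beta receptor, at 0.28 (FDR 0.160). Their median log2 fold change was 0.0035.

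Promoters of 27 of the 38 members, 31 in all, were found in the RefSeq table (GRCm38.p6, 250 bases before to 50 after the start), and neither Cd4 nor Cd83 was among them. The AP-1 letters TGANTCA, which read the same on both strands, were in 5 of the 31 promoters, those of Gzmb, Cd207, Cd80, Klrk1 and Zbtb46, or 16.1% beside 7.81% of all 32851 promoters in the table. An NF-kB motif was in 6 promoters of 5 genes (19.4%, beside 20.7% of all), the interferon-stimulated response element in that of Gzma (3.23%, beside 3.44%) and the PU.1 letters GAGGAAGT in that of Cd5 (3.23%, beside 3.20%), each searched on both strands. Of the 5 genes with the AP-1 letters, Gzmb passed the test and the other 4 did not. A match is a description of the letters and not of binding.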

How the data were processed

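RNA from whole dorsal skin was sequenced on an Illumina HiSeq-1000, and the table the authors deposited gives raw read counts as whole numbers for each gene in the 6 libraries. Tools named in the submitters' processing notes are bcl2fastq, CASAVA 1.8, TopHat and DESeq, with the build mm10. How reads were counted (program, annotation, strand, several matches) is not given in the sources used here. Gene numbers were named from RefSeq (GRCm38.p6), and 85 without a name stayed in the library sizes with 0.913% to 6.03% of the counts. Transcript length and GC content came from the longest GENCODE M21 transcript. No libraries agreed within sampling noise (chi-square per degree of freedom at least 8.68). The filter filterByExpr (minimum count 10) left 16371 genes. Groups were compared in edgeR 4.0.16 (R 4.3.3) by the quasi-likelihood test on TMM-scaled libraries, treatment being the only term. RPKM is CPM per kilobase. Alternatives used DESeq2 (1.42.0), edgeR's exact test, limma-voom (limma 3.58.1), other scalings, filters and thresholds, a replicate block, GC content and length offsets and omission of each library. All 38 members are named, and of each further list the 3 genes with the smallest p. Beyond that rule, T cell cytokines are named, and some T cell and conventional dendritic cell genes were named after their values were seen. Members and lists were chosen with earlier results of these data known. The script was tested on simulated data.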

Additional observations from a re-analysis of the deposited data

How the results depend on the processing

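With 3 libraries a group and levels mostly below 10 CPM, changes under 2-fold were often not resolvable. Of 605 results of single members under 16 alternatives, 551 kept their direction and side of the threshold, 7 lost a call, 6 gained one and 41 changed sign, all of the last in genes that did not pass; the cause was not tested. The members higher numbered 2, but 1 with GC content and length offsets, at an FDR below 0.05 or above 2-fold, and 0 to 3 when each library was left out. The members lower numbered 1, but 2 with DESeq2 and the exact test, and 1 to 2 without a library. Over all genes, 739 rose and 610 fell. An FDR below 0.05 gave 448 and 356, above 2-fold 188 and 114, DESeq2 924 lower, and leaving out a library 246 to 2050 and 171 to 1968, the highest counts being without rIL-31 replicate 3.

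Replicates of the same number did not deviate together (correlations 0.077, -0.020 and 0.216, and only replicate 3 was closest to its own number), so the numbers were not taken as pairs. With the replicate block 1177 genes rose and 1096 fell, and with the block and the offsets 1289 rose. The replicate block gave 2 members lower (Il7r, FDR 0.0694, beside Cd4).

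Of the further T cell genes, 0 to 6 rose and 0 to 1 fell without a library, 1 rose at an FDR below 0.05, 0 above 2-fold, 2 fell with DESeq2 and the exact test, and 1 with the replicate block. Of the further cytotoxic genes, 0 to 1 rose without a library, 1 rose with DESeq2, the exact test, limma-voom, no filter, 10 counts in every library, the offsets, the replicate block and both, and 1 fell with DESeq2 and the exact test. Of the further conventional dendritic cell genes, 0 to 7 rose and 1 to 4 fell without a library, 3 rose at an FDR below 0.05, 0 rose or fell above 2-fold, and 2 fell with the exact test, the replicate block, and the block with the offsets. Of the further maturation genes, 0 to 4 rose and 0 to 2 fell without a library, 3 rose with the replicate block, 2 with block and offsets and 0 at an FDR below 0.05 or above 2-fold. There, 2 fell with DESeq2, the exact test, upper-quartile scaling, no filter and the replicate block, and 1 with 10 counts in every library, the offsets, and block and offsets. Of the further Langerhans cell genes, 0 to 2 rose and 0 to 1 fell without a library, 1 rose with the replicate block, the offsets and both, 2 fell with DESeq2, and 1 fell with the exact test, the block, the offsets and both.

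Log2 fold changes that changed sign without a library ranged from -0.18 to 0.025 for Cd3e, -0.0099 to 0.12 for Cd2, -0.31 to 0.25 for Cd7, -0.21 to 0.20 for Lck, -0.90 to 0.10 for Lat, -0.25 to 0.11 for Cd28, -0.31 to 0.16 for Ctla4 and -0.30 to 0.096 for Foxp3. They ranged from -0.17 to 0.34 for Il2rb, -0.0059 to 0.37 for Klrd1, -0.16 to 0.13 for Xcr1, -0.60 to 0.32 for Clec9a, -0.098 to 0.16 for Cd209a, -0.015 to 0.19 for Zbtb46 and -0.54 to 0.098 for Cd80. With the offsets Lck was at -0.046, Cd28 at 0.067 and Il2rb at -0.026, and with the offsets and the replicate block Lck was at -0.055, Cd28 at 0.046, Ctla4 at 0.011 and Clec9a at -0.043. With the replicate block alone Clec9a was at -0.087 and Xcr1 at -0.0032. Limma-voom gave Clec9a -0.11 and Xcr1 -0.011, and Xcr1 was at -1.6e-05 with the exact test, -0.017 with upper-quartile scaling and -0.00062 with no filter.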
